A study of Homo sapiens with 2 samples.

Results

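The STAT and JAK genes are the core of a signaling pathway that carries growth signals from the membrane to the nucleus, and 9 of them (STAT2, STAT3, STAT4, STAT5A, STAT5B, STAT6, JAK1, JAK2 and TYK2) were followed here by every array probe that the platform annotation gives to them. Such a probe was found for 8 of the 9, out of 20046 genes with a named probe, and all 8 were brighter than the dim probes of the array on at least 1 array, as were 13208 genes in all. STAT2 had no probe in that annotation. One probe that the study itself names STAT2 is given beside the others, but the study listed it among probes that were higher in resistant cells, so its direction was fixed by this choice and it is left out of the counts. K562 is an established chronic myeloid leukemia line that carries the BCR/ABL kinase. Parental K562 cells were kept without drug. K562 nilotinibR cells had been passaged in nilotinib, an inhibitor of BCR/ABL, at 0.1, then 0.3 and then 1 µM over 3 months, and were profiled as the resistant line. Whether they were a pool or a single clone is not given in the sources read. Total RNA of each culture was hybridized to a HumanHT-12v4 BeadChip, with 1 array per condition. No difference below therefore has a replicate check, no p-value is given, and resistance cannot be told apart from the presence of the drug or from differences between any 2 cultures. In such bulk RNA, fewer cells that express a gene and less RNA per cell cannot be told apart either.

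The deposited intensities of 47323 probes had medians of 119 in parental and 117 in nilotinibR cells. An intensity is the brightness of a probe, not on a log scale and with background still included. Each of the 9 K562 and erythroid markers with a probe, including the fetal and embryonic globins and GATA1, had an intensity over 500 on at least 1 array. Their intensities summed to 75273 in parental and 90596 in nilotinibR cells. Past 1.5-fold were 4 of the 9, each with its higher level in the resistant line: TAL1 (3.69-fold), KLF1 (2.80-fold), LMO2 (2.62-fold) and TFRC (1.75-fold). No marker of this list was lower by that fold, and the globins and GATA1 differed by less. Over all measured genes, 7.49% were higher and 8.19% lower by it. Of 17 markers of other cell types, 3 (CD3E, COL3A1 and VWF) were dim on both arrays and 2, the epithelial genes EPCAM and KRT8, had a probe over 500. The summed intensity of these 17, background included, was 7255 in parental and 5548 in nilotinibR cells, and KRT8 was 5.60-fold lower in nilotinibR cells. The part of these differences in those below was not tested.

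Cytokine receptors have no kinase activity of their own. The Janus kinases JAK1, JAK2 and TYK2 sit on their inner tails, phosphorylate the receptor and then the STAT proteins, which pair up, enter the nucleus and bind DNA, most of them at the palindrome TTCNNNGAA. In chronic myeloid leukemia BCR/ABL keeps STAT5 phosphorylated without a cytokine. STAT5 is the shared name of STAT5A and STAT5B, paralogs that lie next to each other on chromosome 17 and encode very similar proteins, and many antibodies and target lists do not separate them. The array has a probe for each, so the mRNA of the pair can be set side by side.

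The mRNA of the pathway's core did not differ in 1 direction between the cultures. STAT5A was 3.03-fold lower in nilotinibR than in parental cells, and its paralog STAT5B was 1.88-fold higher. STAT3, the STAT of the interleukin 6 family of cytokines, was 1.80-fold lower. The kinase genes JAK2 and TYK2 were 1.86-fold and 1.56-fold higher, while JAK1 and STAT6 differed by less than 1.5-fold, the fold that the study used, and STAT4 was too dim in parental cells for a fold to be read. Of the 8 genes, 3 were thus at least 1.5-fold higher (STAT5B, JAK2 and TYK2) and 2 at least 1.5-fold lower (STAT5A and STAT3). Over all 13208 genes, 7.49% were higher and 8.19% were lower by this fold, 15.7% together. With 8 genes and no replicate, these counts describe the 2 arrays, and the share of all genes is given as the background to read them against. The median log2 difference of the 8 genes was 0.21, against -0.0030 for all genes, but it is the mean of STAT4 and STAT6, of which the former is dim in parental cells and the latter differed by less than the probe error given below.

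**Figure D1:**
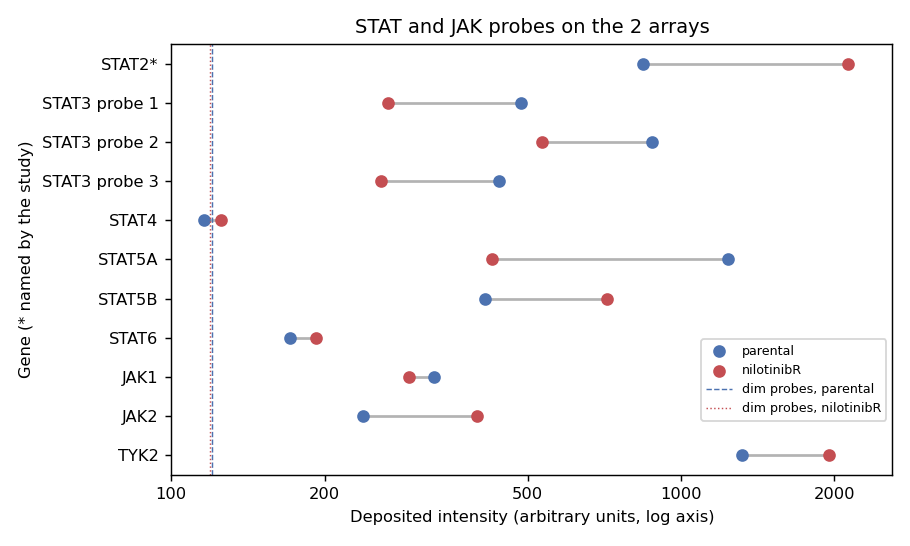
Deposited intensity (log axis) of each STAT and JAK probe on the parental and the nilotinibR array, 1 point per array, joined by a line; dashed and dotted lines mark the level of the dim probes. STAT5A went from 1236 to 425 while STAT5B went from 413 to 717, and all 3 STAT3 probes were lower in nilotinibR cells.

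The STAT5A probe had a deposited intensity of 1236 on the parental and 425 on the nilotinibR array. The STAT5B probe had 413 on the parental and 717 on the nilotinibR array. Both probes were clearly above the dim probes, whose level was 120 on the parental and 119 on the nilotinibR array, so neither direction rests on a dim signal. After background correction and quantile normalization, STAT5A had a log2 level of 10.19 in parental and 8.59 in nilotinibR cells, a log2 difference of -1.60. STAT5B had a log2 level of 8.50 in parental and 9.41 in nilotinibR cells, a log2 difference of 0.91. The difference of STAT5A thus lay 2.51 below that of STAT5B on the log2 scale, which is a 5.70-fold shift of the pair against each other. A ratio of this kind shows that the paralogs differed unequally. It does not give the amount of one mRNA relative to the other, since probes of different sequence are not equally bright.

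Each of the paralogs was read by 1 probe. The only error that could be taken from the values used here is the spread between different probes of a gene. Over the 2598 genes with exactly 2 kept probes, the SD of a single probe's log2 difference within its gene was 0.27, the median gap between the 2 probes was 0.19, and 95% of the gaps were at most 0.78. The log2 differences of STAT5A and STAT5B were both larger than this SD, and the gap of 2.51 between them was larger than 0.78. This spread pools genes of every brightness and difference, and single genes can depart from it. The 2 probes of ID1, for example, had log2 differences of -2.66 and -0.97, while those of SOCS2 had -2.49 and -2.40. The spread does not cover culture-to-culture variation, and it does not cover probes that bind the RNA of a paralog. The probe sequences were not used here, and hybridization of either probe to the mRNA of the other gene was not tested.

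The start regions of the pair differ in sequence, and one window of each is shown because the paralogs share a locus and differed in opposite directions. The windows hold 250 bases before and 50 bases after an annotated start, from RefSeq on GRCh38.p14. STAT5B has 1 window, chr17:42276342-42276641 on the minus strand, with 55 CpG dinucleotides and 82% G and C. STAT5A has 3 windows, with 3, 5 and 37 CpG dinucleotides, and the one with the most, chr17:42288248-42288547 on the plus strand, has 75% G and C. The median over all promoter windows was 14 CpG dinucleotides and 58.7% G and C. Capitals mark the CpG dinucleotides.
STAT5B: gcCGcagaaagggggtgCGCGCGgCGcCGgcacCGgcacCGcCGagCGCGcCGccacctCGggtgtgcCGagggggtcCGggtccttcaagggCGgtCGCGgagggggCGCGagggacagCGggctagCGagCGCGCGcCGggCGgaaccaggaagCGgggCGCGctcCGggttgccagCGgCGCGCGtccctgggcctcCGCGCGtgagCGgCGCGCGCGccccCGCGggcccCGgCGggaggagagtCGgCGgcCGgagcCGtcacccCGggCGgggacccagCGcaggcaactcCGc
STAT5A: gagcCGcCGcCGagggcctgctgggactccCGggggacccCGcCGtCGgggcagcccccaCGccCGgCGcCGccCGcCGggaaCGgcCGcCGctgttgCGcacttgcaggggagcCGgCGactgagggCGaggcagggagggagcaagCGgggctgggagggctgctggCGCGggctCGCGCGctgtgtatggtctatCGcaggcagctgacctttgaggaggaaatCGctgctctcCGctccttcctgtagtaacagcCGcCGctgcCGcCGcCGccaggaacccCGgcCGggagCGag
None of these windows holds TTCNNNGAA, nor does any of the 17 windows of the 9 genes, while 7.66% of all 35116 windows hold it on a search that reads both strands at once, because the motif is its own reverse complement. The absence of these letters says nothing about binding elsewhere at the genes.

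STAT3 was the only one of these genes with several probes, and they did not differ in direction. Their deposited intensities in parental and nilotinibR cells were 486 and 267 for the first probe. They were 875 and 533 for the second probe. They were 440 and 258 for the third probe. Every STAT3 probe was thus dimmer on the nilotinibR array, with log2 differences of -0.97, -0.71 and -0.87, and the gene was lower by a mean log2 difference of -0.85 ± 0.13 (SD, n = 3 probes). The probes share the RNA and the array, so the SD covers probe error only. STAT3 therefore differed in the same direction as STAT5A, by a log2 difference that was smaller by 0.75 in size (STAT5A minus STAT3, -0.75).

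The probe that the study names STAT2 had an intensity of 841 in parental and 2125 in nilotinibR cells. STAT2 partners IRF9 in the complex that switches on genes after type I interferon. By this probe STAT2 was 2.73-fold higher, a log2 difference of 1.45, as fixed by how it was found. The remaining STAT genes had low signals. STAT6, the STAT of interleukin 4 signaling, had an intensity of 171 in parental and 192 in nilotinibR cells and was 1.16-fold higher, a log2 difference of 0.21 that is smaller than the probe SD of 0.27. STAT4, which acts downstream of interleukin 12, had an intensity of 116 in parental cells, under the level of the dim probes there, and 125 in nilotinibR cells, only just over it. Its mRNA was near the limit of detection on both arrays, and no fold is read from it.

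Among the kinases, JAK2, which serves the receptors of erythropoietin and other receptors that signal as pairs of 1 chain, had an intensity of 238 in parental and 398 in nilotinibR cells. Its log2 level was 7.58 and 8.48, a log2 difference of 0.90. TYK2, which serves receptors of interferon and interleukin 12, had an intensity of 1318 in parental and 1954 in nilotinibR cells. Its log2 difference of 0.64 was the smallest past 1.5-fold, and it lay under that fold with median scaling (0.56), 75th percentile scaling (0.54) and in the deposited values (0.57). JAK1, which pairs with other JAKs on many receptors, had an intensity of 328 in parental and 292 in nilotinibR cells. It was 1.13-fold lower, with a log2 difference of -0.18 that is within the probe SD. JAK1 minus JAK2 was -1.08 on the log2 scale, and JAK2 minus TYK2 was 0.25, less than the probe SD.

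**Figure D2:**
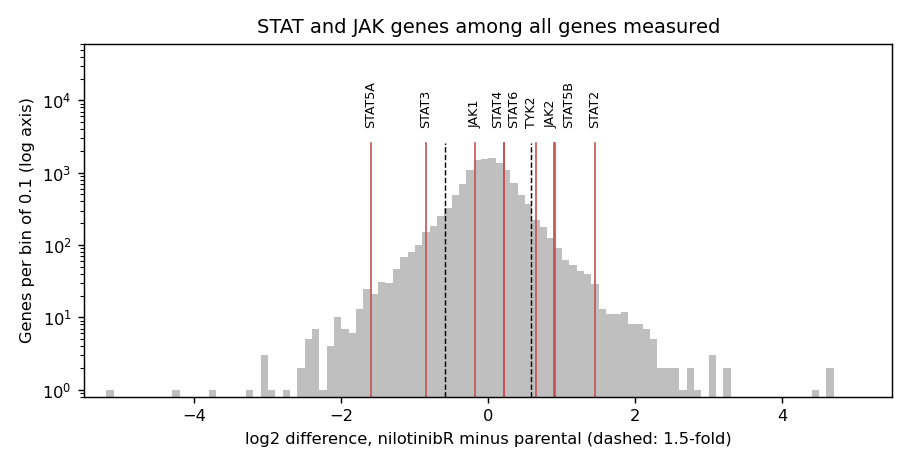
Number of genes per bin of 0.1 (log axis) against the log2 difference of nilotinibR minus parental, over all 13208 genes; red lines mark the STAT and JAK genes and dashed lines 1.5-fold. STAT5A at -1.60 and the study-named STAT2 probe at 1.45 lie farthest out on either side, and STAT4 is drawn although it was dim in parental cells.

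Among all 13208 genes ordered by difference, 88 genes, or 0.666%, were as low as STAT5A or lower, counting STAT5A itself. For STAT3 the same share was 4.08%. On the other side, 404 genes, or 3.06%, were as high as STAT5B or higher. JAK2 had nearly the same place, with 414 genes or 3.13% as high or higher, and the log2 differences of STAT5B and JAK2, 0.91 and 0.90, are not separable by the probe SD. For TYK2 the share was 6.21%. STAT6 lay inside the bulk of the genes, with 26.2% as high or higher, and JAK1 did too, with 29.6% as low or lower. In order of difference the genes with a platform probe, STAT4 left out, therefore ran from STAT5A through STAT3, JAK1, STAT6, TYK2 and JAK2 to STAT5B.

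**Figure D3:**
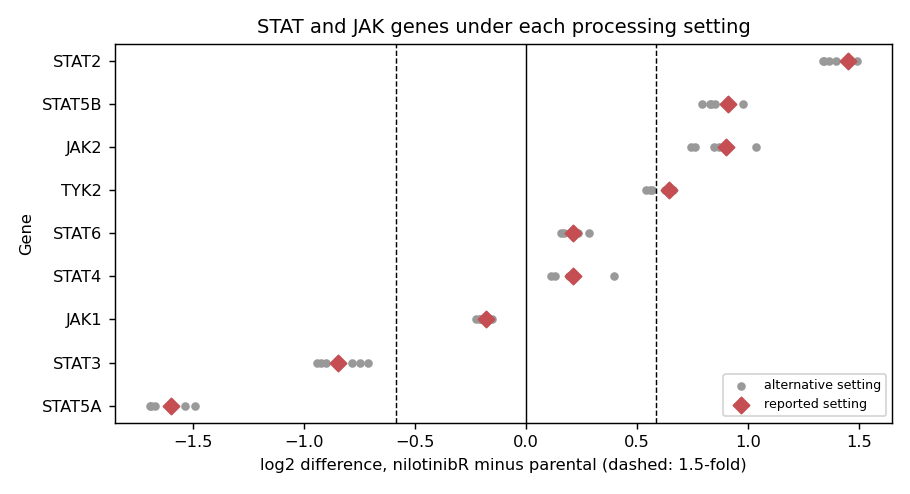
Log2 difference of nilotinibR minus parental for each STAT and JAK gene, with the reported setting as a diamond and each alternative setting as a gray point; dashed lines mark 1.5-fold. STAT5A stays between -1.69 and -1.49 and STAT5B between 0.79 and 0.98, while TYK2 crosses 1.5-fold.

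The processing of the arrays moved these values little. Over 9 settings STAT5A lay between -1.69 and -1.49 on the log2 scale and STAT3 between -0.94 and -0.71, and both were past 1.5-fold in each of the 9. STAT5B lay between 0.79 and 0.98 and JAK2 between 0.74 and 1.04, likewise past 1.5-fold in all 9, while TYK2, between 0.54 and 0.66, was so in 6 of 9. The study-named STAT2 probe lay between 1.34 and 1.49. JAK1 lay between -0.23 and -0.15 and STAT6 between 0.16 and 0.28, and neither passed 1.5-fold in any setting.

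STAT5B, STAT5A and STAT3 form 1 cluster on chromosome 17 that spans 189.3 kb in GRCh38.p14. STAT5B lies at chr17:42199177-42288370, STAT5A at chr17:42287439-42311943 and STAT3 at chr17:42313324-42388442. STAT5B is read from the minus and STAT5A from the plus strand. Their spans, which take in every annotated transcript, share 932 bases, and 1380 bases separate STAT5A from STAT3. The STAT5B window shown above lies outside the shared bases, while the STAT5A window shown there overlaps them. The upper end of the STAT5B span, 42288370, which is its start side on the minus strand, falls inside that STAT5A window. No STAT5B window was taken at that end. STAT2, at chr12:56341597-56360107, and STAT6, at chr12:57095408-57111362, form a looser pair, 735.3 kb apart. The kinase genes lie on separate chromosomes, JAK1 at chr1:64833229-65067746, JAK2 at chr9:4984390-5129948 and TYK2 at chr19:10350533-10380572, and STAT4 lies at chr2:191029576-191151596. In the chromosome 17 cluster the gene in the middle and the one after it were lower and the one before it was higher. Of the 5 nearest protein-coding genes with a kept probe on each side of STAT5A, taken by the lower end of their spans, a set that includes STAT5B and STAT3, 5 of 10 were at least 1.5-fold lower and 1, STAT5B, was higher, against 8.19% and 7.49% of all genes. CAVIN1, a coat protein of caveolae, was 2.30-fold lower, HSD17B1, a steroid dehydrogenase, 1.58-fold, GHDC 1.56-fold and the histone acetyltransferase gene KAT2A 1.54-fold lower. With no background correction GHDC, HSD17B1 and KAT2A lay under 1.5-fold, as did GHDC and HSD17B1 in the deposited values. ATP6V0A1, a proton pump subunit, and DHX58, an RNA sensor, were 1.34-fold and 1.30-fold higher, under the threshold. The region as a whole thus held differences of both signs, with STAT5A the lowest and STAT5B the highest of the 11 genes.

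**Figure D4:**
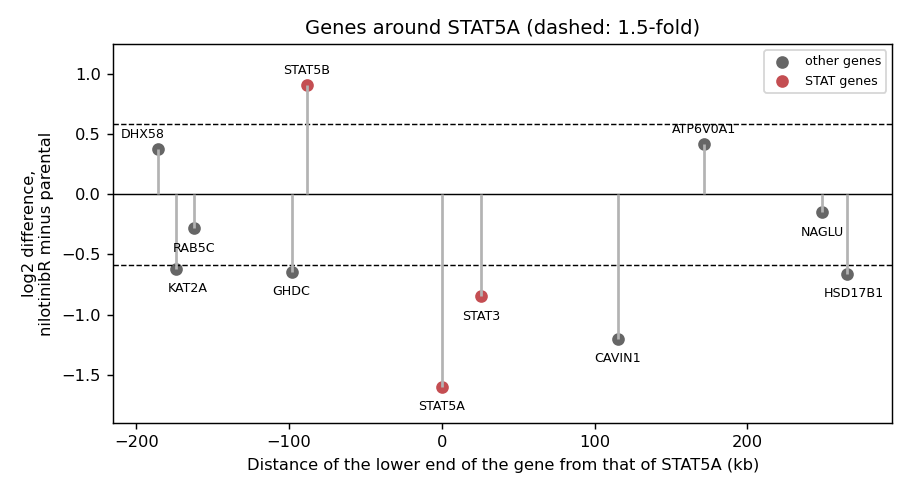
Log2 difference of nilotinibR minus parental for STAT5A and the 5 nearest protein-coding genes with a kept probe on each side, against the distance of the lower end of each gene from that of STAT5A in kb; red points are STAT genes and dashed lines mark 1.5-fold. STAT5B at 0.91 stands above and STAT5A at -1.60 below all other genes of the region.

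Genes known as targets of STAT5 were mostly lower in nilotinibR cells. Of 15 measured, 11 were at least 1.5-fold lower and none was higher by that fold, with a median log2 difference of -1.30 against -0.0030 for all genes. Over all genes 8.19% were lower by this fold, but the list was chosen with earlier results of these data known. SOCS2, a feedback inhibitor of cytokine receptors, was 5.46-fold lower, CCND2, the cyclin D2 gene, 5.13-fold, PIM2, a survival kinase gene, 4.73-fold and CISH, a feedback inhibitor of STAT5, 4.03-fold lower. The mean intensity of the SOCS2 probes was 1593 in parental and 315 in nilotinibR cells. That of the CCND2 probes was 1084 and 227. The probe of PIM2 had 1006 and 244, and that of CISH had 358 and 123, just above the dim probes in nilotinibR cells. These leading genes were thus well above the dim probes in parental cells, and the other 7 ranged from 4.01-fold lower (CCND1, the cyclin D1 gene) to 1.65-fold lower (SOCS1). With no background correction and in the deposited values SOCS1 lay under 1.5-fold, and 10 targets were lower. CCND3, the cyclin D3 gene, was 1.45-fold higher and did not pass. Some of these genes are also targets of other factors. By Western blot the paper reports that STAT5 protein was dephosphorylated in the resistant cells, which an mRNA array does not measure. Whether that loss of phosphorylation, the lower STAT5A or the higher STAT5B mRNA has a part in the target levels was not tested.

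CISH is shown because it is the only STAT5 target among the 9 with a promoter window that holds TTCNNNGAA, and it holds 4 copies, at -241, -230, -129 and -112 from the annotated start (first base of each copy), none overlapping another. The window is chr3:50611725-50612024 on the minus strand of GRCh38.p14 (RefSeq). Capitals mark the 4 copies.
CISH: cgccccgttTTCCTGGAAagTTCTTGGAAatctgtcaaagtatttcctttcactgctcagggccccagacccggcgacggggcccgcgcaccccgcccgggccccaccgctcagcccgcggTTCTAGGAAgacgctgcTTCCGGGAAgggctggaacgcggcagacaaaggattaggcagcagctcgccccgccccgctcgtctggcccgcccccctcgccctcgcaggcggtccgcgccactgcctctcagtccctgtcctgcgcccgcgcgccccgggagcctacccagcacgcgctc
Over all genes with a window, 9.38% hold the motif in at least 1 window. A match describes the letters and is not a measured binding site.

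Targets of STAT3 had differences below the threshold in most cases. Of 10 measured, 4 were at least 1.5-fold lower and none higher, with a median of -0.34, against 8.19% and 7.49% of all genes. PIM1, a survival kinase gene, was 2.46-fold lower, TIMP1, a protease inhibitor gene, 2.29-fold, MCL1, an antiapoptotic gene, 2.25-fold and CEBPD, a transcription factor gene, 1.65-fold. CEBPD lay under 1.5-fold with no background correction and in the deposited values, which left 3. PIM1 and MCL1 stand on both target lists. SOCS3, the feedback inhibitor induced by STAT3, had a mean intensity of 127 in parental and 123 in nilotinibR cells, near the dim probes.

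The genes that STAT2 and its partners switch on after interferon differed in both directions. Past 1.5-fold, 4 of the 23 measured interferon-stimulated genes were higher and 4 lower, with a median of 0.16, against 7.49% and 8.19% of all genes. IRF1, a transcription factor gene, was 2.43-fold higher, from an intensity of 244 to 515. The antiviral sensor gene OAS3 had an intensity of 117 in parental cells, not above the dim probes, and 179 in nilotinibR cells. On the background-corrected scale, on which folds are larger than between deposited intensities, it was at least 1.82-fold higher. IFI6 was 1.72-fold and IFI35 1.61-fold higher, though the probes of IFI6 were not alike, at 0.42 and 1.15 on the log2 scale. IFI35 lay under 1.5-fold with no background correction and in the deposited values, which left 3 higher, and OAS3 did so with no filter on dim probes. The lower genes were IFITM2 at 2.46-fold, IFITM1 at 2.44-fold, BST2 at 2.32-fold and IFITM3 at 2.26-fold, all of which encode membrane proteins that restrict viruses. The IFITM genes are close copies, and probes shared between them were not looked for. IRF9, the DNA-binding partner of STAT2, was 1.40-fold higher. Of 22 genes of this list with a promoter window, 8 (36.4%) held TTCNNNGAA, against 9.38% of all genes. These 8 included genes that were higher (IRF1, IFI35) and lower (BST2, IFITM1). The matches describe letters only. No other motif was searched for, and whether STAT2 with IRF9 binds at these letters was not tested.

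**Figure D5:**
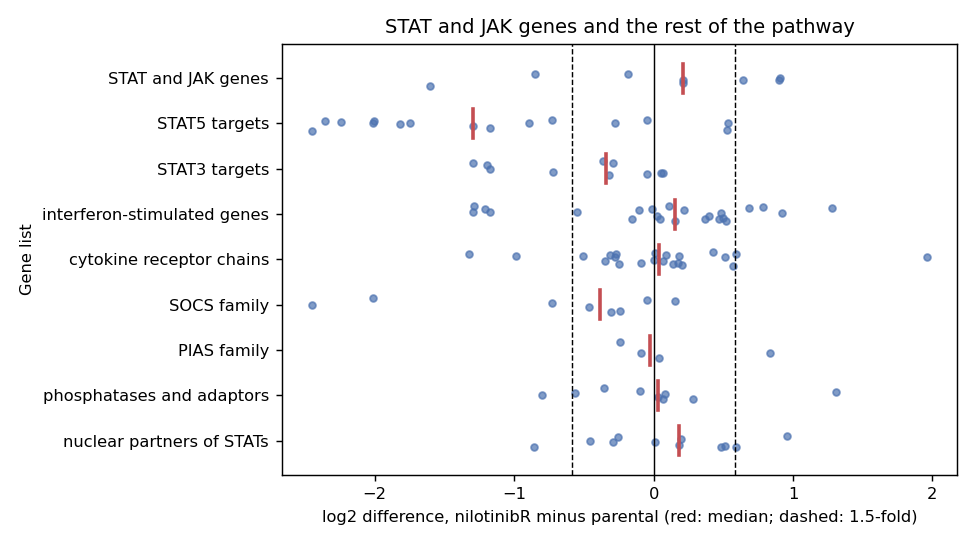
Log2 difference of nilotinibR minus parental for each measured gene of the STAT and JAK family and of 8 further lists, 1 point per gene, with the list's median as a red bar; vertical jitter has no meaning and dashed lines mark 1.5-fold. The STAT5 targets have a median of -1.30, and the family itself spreads from -1.60 to 0.91.

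Upstream of the kinases, most receptor chains showed small differences. Of 22 cytokine receptor chains measured, 2 were at least 1.5-fold higher and 2 lower, with a median of 0.04, shares near the 7.49% and 8.19% of all genes. EPOR, the erythropoietin receptor, whose signal runs through JAK2 and STAT5, was 3.89-fold higher, from an intensity of 203 to 644. IFNAR1, the interferon receptor chain that binds TYK2, was 1.51-fold higher, only just past the threshold, and with no background correction, 75th percentile scaling or the deposited values 1 chain in place of 2 was higher. IL10RA, an interleukin 10 receptor chain, had an intensity of 214 in parental and 113 in nilotinibR cells, the latter not above the dim probes, and was at least 2.29-fold lower on the background-corrected scale. LEPR, the leptin receptor, was 1.98-fold lower, from 5 probes with log2 differences between -1.36 and -0.15. EPOR, 1 of these 22 chains, and JAK2 were thus both higher, while STAT5A was lower and STAT5B higher. Whether these differences are linked, or go with the higher erythroid markers given above, was not tested.

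Of the 8 genes of the SOCS family of feedback inhibitors, 3 were at least 1.5-fold lower and none higher, namely SOCS2, CISH and SOCS1, the last at 1.65-fold, with a median of -0.39, against 8.19% and 7.49% of all genes. SOCS1 lay under 1.5-fold with no background correction and in the deposited values, which left 2. All 3 of these lower genes, and SOCS3, also stand on the list of STAT5 targets, so this count is not separate from that one. Of 4 PIAS genes, whose proteins restrain STATs in the nucleus, PIAS4 was 1.79-fold higher and the other 3 differed by less than 1.5-fold. Of 9 phosphatases and adaptors that restrain or bind JAKs, STAM, an adaptor gene, was 2.48-fold higher and PTPN1, a phosphatase gene that acts on JAK2 and TYK2, was 1.74-fold lower. Of 11 nuclear partners of STATs, such as coactivators and transport factors, NCOA1 and CREBBP, both coactivator genes, were 1.94-fold and 1.51-fold higher. RAN, the nuclear transport GTPase gene, was 1.81-fold lower. CREBBP lay under 1.5-fold with no background correction, median scaling, 75th percentile scaling and in the deposited values. The PIAS, phosphatase and partner counts are also to be read against the 7.49% of all genes higher and 8.19% lower. The receptor, PIAS, phosphatase and partner lists thus had medians between -0.03 and 0.18, near that of all genes.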

How the data were processed

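RNA of 2 K562 cultures was profiled on HumanHT-12v4 BeadChips, grouped by the labels into parental and nilotinibR. The authors processed the scans in GenomeStudio and name RMA Express for normalization. The values used are the deposited intensities, and which of these steps they include is unknown. Another 4 columns, with scanner signals and their detection p-values, match no sample label and were left aside. With limma 3.58.1 in R 4.3.3, background was corrected by normexp (offset 50), followed by quantile normalization and log2. Kept probes exceeded, on at least 1 array, a level that 5% of normal background would pass (25647 probes, 17645 of them with 1 symbol), and a gene is the mean of its kept probes. In the platform annotation 30113 probes had 1 symbol, 8 had several and 17202 had none, and RefSeq (GRCh38.p14) held 30074 of the named ones. A gene dim on 1 array has a bound ("at least N-fold"), taken against the lowest level that counts as measured there. No test was run, since 1 array per condition allows none, and precision is limited by that number. Named are all 9 genes with every probe, up to 4 leading genes per list measured on both arrays and the 10 neighbors of STAT5A; other genes were named after their values were seen. The genes and lists were chosen with earlier results of these data known. The steps were tested on simulated data in which every changed gene differed by 2-fold or more, so smaller folds were not covered. Alternatives were other background corrections, scalings, filters, probe rules and a 2-fold threshold.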

Additional observations from a re-analysis of the deposited data

How the results depend on the processing

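STAT5A minus STAT5B, -2.51 on the log2 scale, lay between -2.67 and -2.32 in the alternatives tried, a shift below the probe SD of 0.27. At 2-fold in place of 1.5-fold, 0 genes were higher and 1, STAT5A, was lower. With the study-named STAT2 probe, an alternative chosen after seeing the data, 4 genes were higher. Median scaling, 75th percentile scaling and the deposited values left 2 genes higher, as TYK2 then lay under 1.5-fold. With an offset of 16 in normexp, 1570 of all genes were higher and 1655 lower, against 989 and 1082. That offset also gave 1 higher STAT5 target in place of 0, 7 higher interferon-stimulated genes in place of 4, 4 lower receptor chains in place of 2, 3 lower phosphatases and adaptors in place of 1, and a SOCS median of -0.67. Over probes above the dim probes on both arrays the median of the STAT5 targets was -1.75, 1 receptor chain was lower, and STAT4 has no value. With no background correction, either scaling or the deposited values, 1 nuclear partner was higher in place of 2. The median of the phosphatases and adaptors, 0.03, was -0.0062 with 75th percentile scaling and -0.08 with no filter on dim probes. The neqc alternative was not run, since its columns match no label. No paired analysis was possible because each condition has a single array, which also leaves no replicate to omit. The low signals of STAT4 and STAT6 limit what can be read from them.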
